A study of Mus musculus with 4 samples.

Results

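The lymphoid priming transcription factors examined here are 10 genes, Bcl11a, Mef2c, Sox4, Lef1, Myb, Satb1, Ets1, Runx1, Bach2 and Erg, chosen by symbol. They were found through the platform annotation as all probe sets assigned to 1 gene with 1 of these symbols, which gave 45 of the 34945 probe sets with 1 gene and 10 of 18193 genes. A probe set is a group of short oligonucleotides on the array that together measure a transcript. Each gene had between 2 and 8 of them, and the gene is represented below by its brightest probe set, with the others given beside it.

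The study compared subpopulations of the common lymphoid progenitor (CLP), a bone marrow progenitor of B, T, natural killer and some dendritic cells, in mice of strain C57Bl6 between 8 and 12 weeks old. The groups were CLP_RAGhigh (sample descriptions CLPGFPhigh) and CLP_RAGlow (CLPGFPlow), with 2 biological replicates each and RNA from 2000 sorted cells per sample, amplified and hybridised to Affymetrix MOE430_2 arrays. No treatment is named, and the labels do not describe the GFP reporter, the allele that carries it or whether the replicates came from separate animals. The p-values therefore measure only the spread between these samples, and the 4 arrays limit the precision.

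Lymphoid priming is the low expression of lymphoid genes in multipotent progenitors before a lineage is fixed. The factors studied act at this stage in different ways. Bcl11a, Mef2c, Satb1 and Bach2 favour lymphoid over myeloid gene expression, Myb, Runx1 and Erg act from stem cells onward and are needed again for early B cells, and Ets1, Sox4 and Lef1 act together with lineage factors in early B and T cells.

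The CLP markers were bright on all 4 arrays. Il7r, Flt3, Cd93, Kit and Dntt had mean log2 intensities from 7.70 to 13.48 in CLP_RAGhigh and from 7.99 to 13.41 in CLP_RAGlow, and Ly6a and Il2rg were not analysed here. Median intensities lay between 14.5 and 14.8 on the linear scale. The 3' probe set of Actb over its 5' probe set, a measure of how far amplification was biased to transcript ends, was 16.2 and 9.62 on the CLP_RAGhigh arrays and 13.5 and 24.5 on the CLP_RAGlow arrays. Its part in the differences below was not tested.

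None of the 10 genes passed the test. With limma over all genes, 0 of 18193 genes (0%) had an adjusted p under 0.05, and the members' adjusted p ran from 0.913 to 1. Without adjustment, 428 genes (2.35%) had a limma p under 0.05 and a higher mean in CLP_RAGhigh and 535 (2.94%) a lower one, and among the members Bach2 and Ets1 were higher and 0 were lower. Their unadjusted limma p were 0.035 and 0.045. Neither stayed under 0.05 with probe sets averaged (0.369 and 0.780). Ets1 was also not under 0.05 without _s_at and _x_at probe sets (0.148), with quantile normalization again (0.052) and with the replicate block (0.078). With any 1 array left out, Bach2 differed by 0.75 to 1.26 and Ets1 by 0.60 to 0.67. Those fits leave 1 array in a group, so only their differences are given. Means were higher in CLP_RAGhigh for 6 of the 10 members and lower for 4, with a median log2 difference of 0.04, beside 0.00 over all genes. Each CLP_RAGhigh array read above each CLP_RAGlow array for Myb, Ets1 and Bach2, 3 of 10 members, where 15.4% of all genes did so. Each read below for Bcl11a and Mef2c, 2 of 10, where 15.8% of all genes did so. The members were proposed with results of these arrays known, so these counts are a description. In bulk RNA, fewer cells of a type and less RNA per cell cannot be told apart, which applies to every value below.

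**Figure D1:**
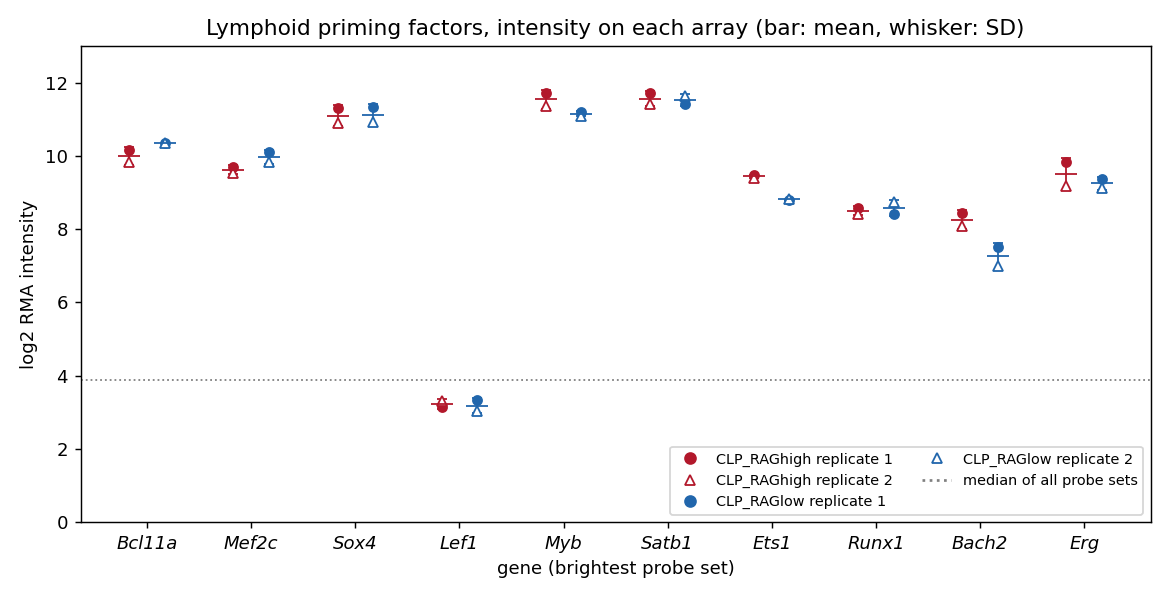
Log2 intensity of the brightest probe set of each factor, with a symbol for each array, the mean as a horizontal bar and the SD as whiskers (n = 2 per group). Bach2, Ets1 and Myb were higher on both CLP_RAGhigh arrays, Mef2c and Bcl11a were lower, and Lef1 lay below the dotted median of all probe sets in both groups.

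The probe sets gave a more even picture than the genes. In CLP_RAGhigh the mean was higher for 23 of the 45 and lower for 22. The groups separated above for 4, that is 8.89% beside 15.5% of all probe sets, and below for 7, that is 15.6% beside 15.2%. Neither share stood above the background by more than 1 percentage point. With limma over all probe sets 0 of 34945 (0%) passed, and at an unadjusted p under 0.05 the members had 2 probe sets higher (2.24% of all) and 1 lower (2.56% of all). The probe sets of a gene all went in 1 direction for Lef1 and Myb and in both directions for the other 8 genes. When each array was left out in turn, 17 of the 45 kept their sign all 4 times, 8 of them higher and 9 lower in CLP_RAGhigh. For the probe sets that separated the groups, 4 above and 7 below, this was fixed in advance.

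**Figure D2:**
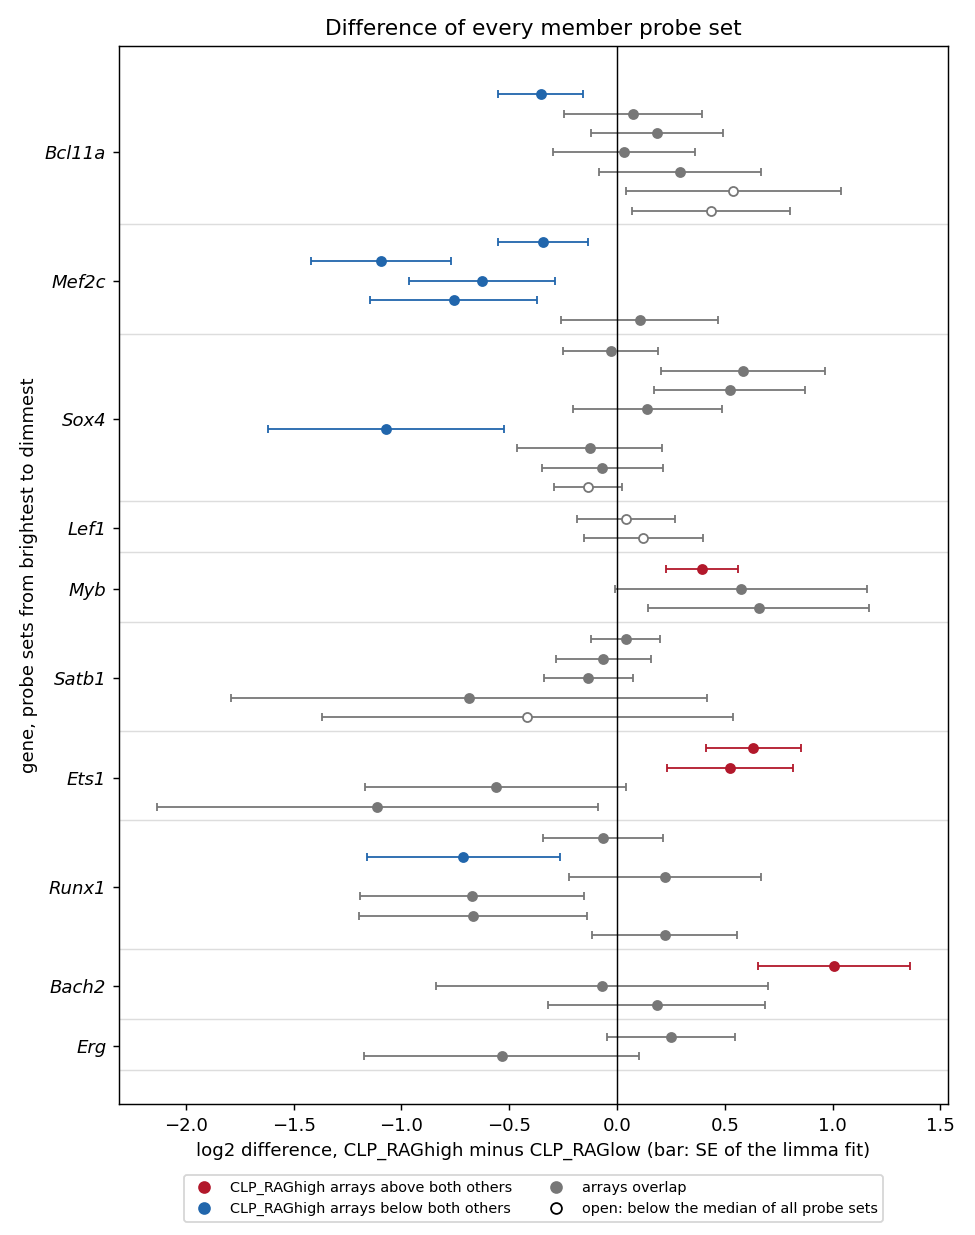
Log2 difference between the groups for each of the 45 probe sets, ordered within a gene from the brightest to the dimmest, with the SE of the limma fit. The 4 lower Mef2c probe sets are blue and the pair of brightest Ets1 probe sets red, while the Sox4 and Runx1 probe sets lie on both sides of 0.

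Promoter sequences from RefSeq (build GRCm38.p6, 250 bases before to 50 after a start) were found for 9 of the 10 factors, with 21 windows in all. Ets1 was not matched. They were searched on both strands for short motifs of factor families to which members belong or with which they work. The SOX motif ACAAAG was in 6 of 21 windows, beside 18.7% of all 32851 windows. The LEF/TCF motif CTTTGA and the E box CAGCTG were in 3 windows each, beside 16.0% and 16.3% of all windows. MYB CAACTG and ETS CGGAAGT were in 2 windows each (13.7% and 6.42% of all), and RUNX TGTGGT and the octamer ATGCAAA in 1 each (16.8% and 4.63%). The SOX and LEF/TCF motifs share the letters CTTTG on 1 strand, and 2 of the Satb1 windows with a SOX match overlap and hold the same match. These matches are a description of the letters and show no binding. A window is printed below for 4 members, for Bach2, Mef2c and Myb because their arrays separated the groups and the window holds a motif of another family of the set, and for Runx1 because it holds the motif of its own family 2 times. A window of Lef1, whose arrays were dim, also holds the LEF/TCF motif 2 times and is not printed.

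Bach2, a repressor that restrains myeloid genes in lymphoid progenitors and plasma cell genes in B cells, had the largest difference of the 10 by brightest probe set. Averaged over probe sets, Mef2c (-0.54) and Myb (0.54) were larger in size, and single probe sets of Mef2c, Ets1 and Sox4 also exceeded it. Its brightest probe set 1436515_at had log2 intensities of 8.45 and 8.07 on the CLP_RAGhigh arrays and 7.51 and 7.0 on the CLP_RAGlow arrays. The groups did not overlap. The difference was 1.01 ± 0.37 (SE, n = 2 per group), or 2.01-fold, with a 95% interval from 0.10 to 1.92 and a limma adjusted p of 0.913. Leaving out 1 array gave 0.75 to 1.26. The other Bach2 probe sets did not show it. Probe set 1437667_a_at read 7.71 and 5.92 against 7.53 and 6.24, high on replicate 1 of each group, with a difference of -0.07 ± 0.77, and 1445460_at differed by 0.18 ± 0.50. Averaged over its 3 probe sets, Bach2 differed by 0.37. In its promoter window (chr4:32417185-32417484, plus strand), capitals mark the reverse complement of the LEF/TCF motif, which begins 93 bases before the start.
Bach2: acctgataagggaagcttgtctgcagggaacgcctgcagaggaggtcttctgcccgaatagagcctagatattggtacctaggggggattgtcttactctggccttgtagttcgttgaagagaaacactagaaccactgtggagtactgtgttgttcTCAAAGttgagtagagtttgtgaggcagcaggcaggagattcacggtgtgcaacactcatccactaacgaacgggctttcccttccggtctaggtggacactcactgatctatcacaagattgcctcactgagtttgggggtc

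Mef2c, a MADS-box factor that promotes lymphoid over myeloid fate in multipotent progenitors, had 4 of its 5 probe sets with both CLP_RAGhigh arrays below both CLP_RAGlow arrays, where no other member had more than 1 such probe set. Of all probe sets, 15.2% read so. The probe sets of a gene read the same samples and are not replicates of each other. Counted by means alone, Satb1 likewise had 4 of 5 probe sets lower and Sox4 5 of 8. The brightest, 1424852_at, read 9.71 and 9.54 in CLP_RAGhigh and 10.10 and 9.84 in CLP_RAGlow. That is a difference of -0.34 ± 0.23 (SE, n = 2 per group), or 1.27-fold lower in CLP_RAGhigh, with a 95% interval from -0.90 to 0.22 and a limma adjusted p of 0.983. Probe set 1421027_a_at read 7.44 and 7.43 against 8.27 and 8.79, the widest gap between the groups in this gene. Its difference was -1.10 ± 0.32, with an interval from -1.93 to -0.26 and a limma adjusted p of 1 over all probe sets. Probe sets 1451506_at and 1451507_at differed by -0.63 ± 0.34 and -0.76 ± 0.39. The dimmest, 1421028_a_at, had overlapping arrays and a difference of 0.10 ± 0.36. Because their arrays did not overlap, the 4 lower probe sets had to keep their sign with any 1 array left out. The mean of all 5 gave -0.54 ± 0.28. Which transcripts of the gene each probe set measures was not analysed here. Of 3 Mef2c promoter windows, the most upstream (chr13:83503784-83504083, plus strand) is shown, with capitals on the reverse complement of the ETS motif, 58 bases before the start, and on the SOX motif 31 bases into the transcript.
Mef2c: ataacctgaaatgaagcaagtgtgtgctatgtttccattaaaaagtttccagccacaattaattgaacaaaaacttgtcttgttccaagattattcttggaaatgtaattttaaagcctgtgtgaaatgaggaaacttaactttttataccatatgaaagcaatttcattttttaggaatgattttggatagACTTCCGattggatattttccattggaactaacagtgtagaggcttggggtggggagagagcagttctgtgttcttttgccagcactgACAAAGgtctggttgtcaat

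Bcl11a, a zinc-finger repressor needed for B-cell development, was bright in both groups. Its brightest probe set 1419406_a_at read 10.16 and 9.83 in CLP_RAGhigh and 10.35 and 10.34 in CLP_RAGlow. The CLP_RAGhigh arrays were lower without overlap, by a difference of -0.35 ± 0.21 (SE, n = 2 per group) with an interval from -0.87 to 0.16 and a limma adjusted p of 0.979. The 6 other probe sets had higher means in CLP_RAGhigh, all with overlapping arrays. Probe set 1456632_at differed by 0.07, 1457072_at by 0.19, 1426552_a_at by 0.03, 1447335_x_at by 0.29 and the dim 1453814_at by 0.44, and the dim 1447334_at, which differed by 0.54, was at 4.39 on CLP_RAGhigh replicate 2 and between 3.0 and 3.32 on the other 3 arrays. Averaged over 7 probe sets the gene differed by 0.17, with the opposite sign to its brightest probe set.

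Satb1, a chromatin organiser that supports lymphoid fate and expression of the Rag genes, was bright and close between the groups. Probe set 1416008_at read 11.72 and 11.41 in CLP_RAGhigh and 11.41 and 11.64 in CLP_RAGlow. The arrays overlapped, and the difference of 0.04 ± 0.16 (SE, n = 2 per group) had an interval from -0.36 to 0.44, so that larger shifts than 0.44 in either direction fall outside it. Probe sets 1416007_at and 1436182_at were also bright and differed by -0.06 and -0.13. The dimmer pair varied more within groups. Probe set 1439449_at was at 4.73 on CLP_RAGhigh replicate 2 and at 6.95 to 8.05 on the others, and 1439315_at ran from 2.11 to 4.90 with its lowest and highest reading both in CLP_RAGlow. None of the 5 probe sets separated the groups. Rag1, whose locus Satb1 helps to activate, differed by 2.65 between these groups, which are named for RAG level. A link between the Satb1 and Rag1 values was not tested.

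Myb, which keeps progenitors proliferating and is needed for the pro-B stage, had a higher mean in CLP_RAGhigh in all 3 probe sets. The brightest, 1421317_x_at, read 11.73 and 11.35 in CLP_RAGhigh and 11.20 and 11.10 in CLP_RAGlow, without overlap. The difference was 0.39 ± 0.17 (SE, n = 2 per group), or 1.31-fold, with an interval from -0.02 to 0.81 and a limma adjusted p of 0.940. The suffix x marks probes that may cross-hybridise, and without such sets the gene was read by 1450194_a_at, at 0.57 ± 0.55. That probe set and 1422734_a_at rested on CLP_RAGhigh replicate 1, at 11.40 and 7.69, since replicate 2 read 9.73 and 6.45, within the CLP_RAGlow values of 10.29 and 9.69 and of 6.48 and 6.34. Without CLP_RAGhigh replicate 1 the brightest probe set differed by 0.21. The Myb promoter window (chr10:21160935-21161234, minus strand, 75% G and C) has a reverse complement of the SOX motif 17 bases into the transcript, in capitals.
Myb: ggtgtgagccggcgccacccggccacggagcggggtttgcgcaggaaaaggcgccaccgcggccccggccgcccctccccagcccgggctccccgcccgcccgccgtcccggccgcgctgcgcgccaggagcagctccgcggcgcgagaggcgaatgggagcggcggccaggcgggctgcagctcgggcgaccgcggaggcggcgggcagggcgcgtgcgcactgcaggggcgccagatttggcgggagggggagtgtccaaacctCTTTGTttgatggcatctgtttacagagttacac

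The ETS family has 2 members in the set, and the difference between them was not tested. Ets1, which works with Pax5 at the Cd79a promoter, read 9.47 and 9.41 in CLP_RAGhigh and 8.80 and 8.82 in CLP_RAGlow in its brightest probe set, 1426725_s_at. The replicates lay close to each other and the groups did not overlap. The difference was 0.63 ± 0.25 (SE, n = 2 per group), or 1.55-fold, with an interval from 0.02 to 1.24 and a limma adjusted p of 0.928. Probe set 1452163_at agreed in sign without overlap, at 8.80 and 8.40 against 8.07 and 8.08, a difference of 0.52 ± 0.29. The remaining pair was dimmer and went the other way through 1 array. Probe set 1422028_a_at read 6.46 on CLP_RAGlow replicate 1 and 3.42 to 4.32 on the others, and 1422027_a_at read 5.68 there and 4.06 to 4.52 elsewhere. The mean of the 4 probe sets was -0.13 ± 0.44. Erg, which maintains stem cells and acts in early B cells, read 9.82 and 9.19 against 9.38 and 9.13 in 1440244_at. Its arrays overlapped, with a difference of 0.25 ± 0.31 and an interval from -0.51 to 1.01. The dimmer Erg probe set 1425370_a_at differed by -0.53 ± 0.64, again highest on CLP_RAGlow replicate 1 at 5.20.

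Runx1, the DNA-binding subunit of core-binding factor, was close between the groups in its brightest probe set. Probe set 1440878_at read 8.59 and 8.42 in CLP_RAGhigh and 8.41 and 8.73 in CLP_RAGlow, with overlap and a difference of -0.07 ± 0.30 (SE, n = 2 per group, interval from -0.80 to 0.67). Probe set 1422864_at read 6.72 and 7.78 against 7.98 and 7.94, lower in CLP_RAGhigh without overlap, and differed by -0.71 ± 0.45. Most of that gap came from CLP_RAGhigh replicate 1, since without it the difference was -0.18. Probe sets 1452531_at and 1422865_at differed by -0.67 each with overlapping arrays, and 1427650_a_at and 1452530_a_at by 0.22 each, also with overlap. Cbfb, the partner that stabilises Runx1 on DNA, differed by 0.13 ± 0.16. Runx1 has 2 promoter windows in the table. The upstream one (chr16:92826025-92826324, minus strand) holds the reverse complement of the RUNX motif at 29 and again at 37 bases into the transcript and the MYB motif 167 bases before the start, all in capitals.
Runx1: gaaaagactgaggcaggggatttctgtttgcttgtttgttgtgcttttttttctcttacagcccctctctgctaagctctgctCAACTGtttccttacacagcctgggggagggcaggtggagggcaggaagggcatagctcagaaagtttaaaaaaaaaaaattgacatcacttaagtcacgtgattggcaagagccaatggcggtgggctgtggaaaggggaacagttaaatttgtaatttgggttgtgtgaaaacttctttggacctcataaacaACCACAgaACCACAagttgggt

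The HMG-box factors are Sox4, which pro-B cells need to develop, and Lef1, a partner of beta-catenin in Wnt signalling. Sox4 read 11.30 and 10.90 in CLP_RAGhigh and 11.34 and 10.91 in CLP_RAGlow in probe set 1433575_at. Replicate 1 was higher than replicate 2 by a similar amount in each group, and the difference between groups was -0.03 ± 0.22 (SE, n = 2 per group, interval from -0.57 to 0.51). Probe sets 1419155_a_at and 1419156_at differed by 0.59 ± 0.38 and 0.52 ± 0.35 with overlapping arrays. Probe set 1419157_at lay lower in CLP_RAGhigh without overlap, at 4.74 and 4.91 against 6.58 and 5.20, a difference of -1.07 ± 0.55 that was -0.38 without CLP_RAGlow replicate 1. The other 4 Sox4 probe sets had overlapping arrays and differences from -0.13 to 0.14. Lef1 was dim in every sample. Its brightest probe set 1454734_at read 3.14 and 3.32 against 3.34 and 3.03, below the median of all probe sets at 3.88, and 1421299_a_at read 2.32 to 3.01. The Lef1 differences of 0.04 and 0.12 lay at this low level, where the arrays overlapped and RMA does not separate low expression from background.

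The arrays did not contribute evenly to these values. Among the 45 probe sets, the highest reading was on CLP_RAGlow replicate 1 for 15 and on CLP_RAGhigh replicate 1 for 14, beside 25.8% and 21.6% of all probe sets. It was on CLP_RAGhigh replicate 2 for 7 (34.2% of all) and on CLP_RAGlow replicate 2 for 9 (18.4% of all).

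Genes around the factors were read from 4 lists of relatives, partners, described targets and the lymphoid-primed programme. With limma 0 genes of any of them passed over all genes. In CLP_RAGhigh 9 of 14 measured relatives had a higher mean and 5 a lower one, with a median of 0.18, and arrays separated above for 5 (35.7% beside 15.4% of all genes) and below for 0 (15.8% of all genes). The 4 with the smallest p were Tcf7l2 at 0.76 ± 0.45, Bcl11b at 0.32 ± 0.22, Fli1 at 0.40 ± 0.31 and Ets2 at 0.58 ± 0.45. Bcl11b, the T-lineage relative of Bcl11a, was dim, at 3.21 to 3.74. When probe sets were averaged, Fli1 turned to -0.40 and Bcl11b to -0.05, and Tcf7l2 and Ets2 fell to 0.39 and 0.31. Of 15 partners and corepressors, 5 had a higher and 10 a lower mean, with a median of -0.06 and arrays that separated above for 3 (20%) and below for 4 (26.7%), and the 4 with the smallest p were Tle1 at 0.70, Hdac4 at -0.52, Mafg at -0.41 and Hdac7 at 0.40. Hdac4 was at 0.02 with its probe sets averaged. Mafg encodes a small MAF protein that pairs with BACH factors, and Mafk, another, differed by -0.30 ± 0.33.

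Genes described as targets of the factors included some of the largest differences, in both directions. Of 15, 10 had a higher and 5 a lower mean, with a median of 0.14, and arrays separated above for 6 (40% beside 15.4% of all genes) and below for 2 (13.3% beside 15.8%). Rag1, Rag2, Il7r and Dntt are among the 6. Cd79a, a target of Ets1 and Runx1 with Ebf1 and Pax5, read 6.37 and 5.85 against 4.37 and 3.76, a difference of 2.05 ± 0.39 that was 1.05 with an offset of 32 before log2. Csf1r, the macrophage growth factor receptor and a Runx1 target, read 6.79 and 8.26 against 9.31 and 9.54, a difference of -1.90 ± 0.52. With its probe sets averaged, Csf1r was at -1.25. Bcl2, a survival gene activated by Myb, read 8.52 and 8.63 against 9.43 and 9.33, lower in CLP_RAGhigh without overlap at -0.81 ± 0.26, and at -1.55 with its probe sets averaged. Prdm1, which Bach2 represses, was dim, at 2.36 to 3.50, as were Axin2, Hmox1 and Tead2. The lymphoid-primed programme had 13 of 15 measured genes with a higher mean and 2 with a lower mean in CLP_RAGhigh, with a median of 0.30 and arrays that separated above for 9 (60% beside 15.4% of all genes) and below for 0 (15.8% of all genes). Rag1, Rag2, Il7r and Dntt are among these 9 as well, and Flt3 is also in both lists, so the lists are not independent. The groups are named for RAG level, though the labels do not say for which Rag gene. The smallest p of the programme were those of Rag1 at 2.65, Ly6d at 2.51, Blnk at 1.30 and Ltb at 1.19. Notch1, Flt3 and Cd52 in the same list had overlapping arrays, at 0.12, 0.14 and 0.14. The 2 with a lower mean were Ccr9 at -0.76 and Lsp1 at -0.37, both with overlap. Among the 9, Dntt differed by 0.06 (0.30 with probe sets averaged). Cd53, also among them, was at 0.28 and turned to -0.68 with its probe sets averaged.

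**Figure D3:**
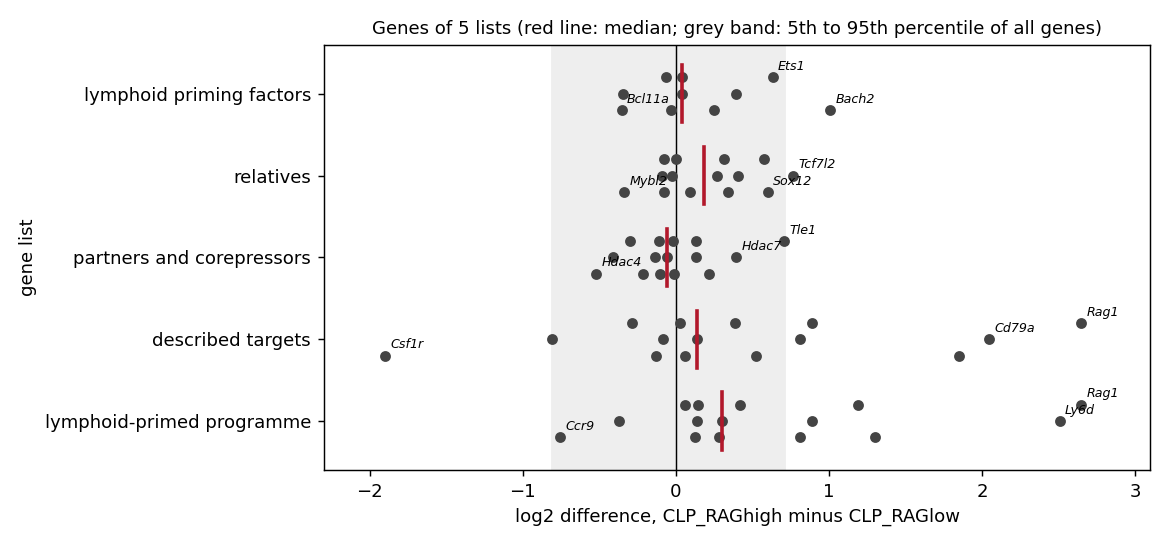
Log2 difference between the groups for each gene of 5 lists, with the median as a red line and the band from the 5th to the 95th percentile of all genes (-0.81 to 0.71) in grey. Of the 10 factors only Bach2 lies outside the band, while Rag1, Ly6d, Cd79a and Csf1r lie far outside it.

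Markers of other cells were read beside the factors, and their part in the differences was not tested. Of 6 stem and multipotent progenitor markers, 5 (83.3%, beside 15.8% of all genes) were lower in CLP_RAGhigh without overlap. The summed intensity of the 6 was 1193 and 1340 in CLP_RAGhigh and 1888 and 1859 in CLP_RAGlow. Cd34 read 8.72 and 9.48 against 10.33 and 10.11, Meis1 had overlapping arrays at 0.37, and Slamf1, Procr and Mecom were dim. With probe sets averaged, Hlf was at -0.68, Mecom at -0.53, Slamf1 at -0.02 and Meis1 at -0.14. The 5 plasmacytoid dendritic markers summed to 2830 and 3695 against 3967 and 5183, with Irf8 at -0.65 and Bst2 at -0.90 lower without overlap, Siglech at 0.31 higher without overlap, and Ccr9 at -0.76 and Tcf4 at -0.28 with overlapping arrays. Tcf4 was at 0.02 with its probe sets averaged. The 6 B-cell markers summed to 504 and 381 against 305 and 371, and split evenly, 3 of them up and 3 down in mean, around a median of -0.08. Cd79b read 8.18 and 7.74 against 6.84 and 7.22. Cd22 was higher without overlap at 0.68, and at 0.24 with the offset before log2 used for Cd79a above. H2-Ab1 differed by -0.19 with overlap. Ms4a1, Cr2 and Fcer2a were dim in both groups, with Ms4a1 at -0.39 and Fcer2a at -0.16 without overlap. The 7 granulocyte and monocyte markers summed to 3153 to 4269 on the 4 arrays, with Mpo at 10.70 to 11.03, and S100a8 was at 3.81 on CLP_RAGlow replicate 2 and 9.60 to 10.15 on the others. Of these 7, Csf1r was lower without overlap at -1.90 (-1.25 with probe sets averaged) and Elane higher without overlap at 0.41, and 5 overlapped. The 7 T-cell markers summed to 155 and 160 against 122 and 129, with Cd3d and Cd3g dim. Trat1 at 1.20, Cd5 at 1.01 and Cd8a at 0.26 were higher without overlap (42.9% beside 15.4% of all genes), and 4 overlapped. Both Trat1 readings in CLP_RAGlow (3.61 and 3.28) and the Cd5 reading on CLP_RAGlow replicate 1 (3.15) lay under the median of all probe sets. With the same offset before log2, Trat1 was at 0.44, Cd5 at 0.36 and Cd8a at 0.12. The 5 natural killer markers were all dim. The 4 erythroid markers summed to 167 and 112 against 84.3 and 54.1, mostly through Klf1 at 2.02 ± 0.62. Klf1 was at 1.14 with that offset. Hba-a1 and Gata1 were dim, and of 6 stromal and endothelial markers 5 were dim.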

How the data were processed

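Biotin-labelled RNA of sorted cells was measured on Affymetrix MOE430_2 arrays, per the labels. The deposited values are RMA intensity values, 1 for each probe set, per the series design text. RMA corrects background, normalizes between arrays and summarises probes. For software and filters, the sources used here give none. The deposited intensity values ran from 2.35 to 19893 on a linear scale and were converted to log2 here.

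Of 45101 rows, 64 control probe sets were left out, and 932 probe sets with several genes and 9160 with none were not used. The platform annotation named the genes, and 34741 of 34945 gene IDs were found in the reference table. A gene was represented by its probe set of highest mean log2 value. Groups came from the sample titles. Differences are CLP_RAGhigh minus CLP_RAGlow, from limma 3.58.1 in R 4.3.3 (two-sided, lmFit and eBayes with trend). Benjamini-Hochberg adjustment ran over 18193 genes or, for single probe sets other than the brightest, over 34945 probe sets, with a threshold of 0.05. The fits had 2 residual and 3.75 or 2.99 prior degrees of freedom. Dim means a mean log2 value under 3.88, the median of all probe sets. The fit was tested on simulated data whose changes were larger than those of the members, so that test does not cover differences of the members' size. Alternatives were the mean over probe sets, no _s_at or _x_at probe sets, an offset of 32, no dim features, quantile normalization again, no intensity trend, a replicate block and each array left out. All 10 members are named with their probe sets, and from each list the 4 genes with the smallest p, while other genes were named after their values were seen. The members and lists were chosen with earlier results of these data known. No genome build is given for the arrays, so coordinates belong to the RefSeq promoter table only. Figures were drawn with matplotlib 3.10.9.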

Additional observations from a re-analysis of the deposited data

How the results depend on the processing

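Whether the replicate numbers pair the samples is not stated in the labels, and a correlation over genes cannot decide it. The difference of replicate 1 from replicate 2 in CLP_RAGhigh correlated with that in CLP_RAGlow at -0.02 over 18193 genes. With the replicate block, 5 genes were higher and 2 lower at an adjusted p under 0.05, where the fit without it had 0 and 0, and the members' adjusted p were 0.830 or above for Bach2, Ets1, Myb and Mef2c. Counts of genes past the threshold also moved to 2 higher with probe sets averaged, to 1 higher without dim features, and to 2 higher and 1 lower with quantile normalization again. None of the 10 members passed under any of the alternatives run. The cause was not tested. The signs of Bach2, Mef2c and Myb held under all 11 alternatives, several of which could not reverse them. No intensity trend, the replicate block and no dim features refit the same values. Brightest probe sets that separate the groups must keep their sign with any 1 array left out. The mean over probe sets, which could reverse a sign, gave 0.37 for Bach2, -0.54 for Mef2c and 0.54 for Myb. Averaging probe sets reversed Bcl11a (0.17), Satb1 (-0.25), Ets1 (-0.13) and Erg (-0.14). With 1 array left out, Satb1 ran from -0.11 (without CLP_RAGhigh replicate 1) to 0.19, Erg from -0.065 (without CLP_RAGhigh replicate 1) to 0.57, Sox4 from -0.24 to 0.18 (positive without CLP_RAGhigh replicate 2 or CLP_RAGlow replicate 1), and Lef1 from -0.11 to 0.19 and Runx1 from -0.22 to 0.093 (both reversed without CLP_RAGhigh replicate 2 or CLP_RAGlow replicate 2). Satb1 also reversed without CLP_RAGlow replicate 1. Leaving out 1 array gave a members' median of -0.09 to 0.19, with 4 to 7 of 10 genes and 19 to 26 of 45 probe sets higher. At an unadjusted limma p under 0.05 it gave 211 to 805 genes higher and 328 to 829 lower, and 376 to 1582 probe sets higher and 692 to 1420 lower, each time most without CLP_RAGhigh replicate 1 and fewest without CLP_RAGlow replicate 1 or, for lower probe sets, CLP_RAGlow replicate 2. Signal over background limits Lef1, which was dim on all arrays.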
